A study of Mus musculus with 8 samples.

Results

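The aryl hydrocarbon receptor, encoded by Ahr, and the transcripts commonly read as its output, Ahrr, Tiparp, Cyp1a1 and Cyp1b1, were followed across the cells of the mouse colonic lamina propria. These 5 genes were taken by name from the 31053 genes counted, on the textbook description of the receptor pathway and not by a cut on their values. Earlier results of these data were known when they were chosen. The data were 8 single-cell RNA libraries from C57BL/6 mice aged 10 to 12 weeks, kept under specific-pathogen-free conditions on normal diet. They formed 4 groups of 2 libraries: untreated wildtype, untreated mutant, wildtype given dextran sulfate sodium (DSS) and mutant given DSS. DSS, a detergent-like polysaccharide that injures the colon epithelium, was given at 2% in the drinking water for 7 days, followed by regular water until harvest on day 10. Untreated mice drank regular water throughout and were harvested on the same day. The mutant carries a change in RORgt, the transcription factor of Th17 cells and group 3 innate lymphoid cells, that the series names RORgtS182A and the library titles name S203AKI. The labels give no cell type restriction of the allele and do not say whether animals were pooled. The study describes the libraries of a group as independent biological replicates. Its comparisons were DSS with untreated colon, and mutant with wildtype colon in each condition.

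The receptor is a ligand-activated transcription factor of the bHLH-PAS family. It waits in the cytosol with Hsp90 chaperones, binds plant, microbial and tryptophan-derived ligands, and enters the nucleus to pair with Arnt on a short DNA core. Its targets feed back on it: Ahrr competes for Arnt, Tiparp (an ADP-ribosyltransferase) modifies the receptor, and the Cyp1 monooxygenases break its ligands down. In the gut it is best known for supporting interleukin-22 production and the upkeep of group 3 innate lymphoid cells and intraepithelial lymphocytes.

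The promoters of 4 of the members matched an entry in the RefSeq table (GRCm38.p6), and they are shown because Ahrr and Tiparp were both lower after DSS in CD4 T cells and Cyp1b1 was higher in fibroblast-like cells. The sequences are the 250 bases before the RefSeq start, 5′ to 3′ on the gene's strand, and the capitals mark the 5-base receptor core, GCGTG or its reverse complement CACGC, searched on both strands. For Tiparp the last 37 bases, which GENCODE M21 counts into the gene, were left off, and the stretch lies in an exon of 4931440P22Rik on the other strand. The Cyp1a1 stretch lies inside the span GENCODE M21 gives that gene, before the RefSeq start and in no annotated exon. The stretches are at chr13:74292332-74292581 (minus strand) for Ahrr, chr3:65528197-65528409 (plus strand) for Tiparp, chr9:57697363-57697612 (plus strand) for Cyp1a1 and chr17:79715062-79715311 (minus strand) for Cyp1b1.
Ahrr: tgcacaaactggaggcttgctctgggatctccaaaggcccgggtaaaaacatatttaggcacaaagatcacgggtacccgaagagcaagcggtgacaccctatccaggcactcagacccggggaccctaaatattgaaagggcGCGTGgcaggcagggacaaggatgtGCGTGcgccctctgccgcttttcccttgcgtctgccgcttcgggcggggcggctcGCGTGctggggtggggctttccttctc
Tiparp: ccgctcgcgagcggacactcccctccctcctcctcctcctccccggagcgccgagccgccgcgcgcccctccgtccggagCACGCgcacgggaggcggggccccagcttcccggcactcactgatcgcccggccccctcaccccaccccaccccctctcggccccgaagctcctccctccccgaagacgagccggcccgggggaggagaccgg
Cyp1a1: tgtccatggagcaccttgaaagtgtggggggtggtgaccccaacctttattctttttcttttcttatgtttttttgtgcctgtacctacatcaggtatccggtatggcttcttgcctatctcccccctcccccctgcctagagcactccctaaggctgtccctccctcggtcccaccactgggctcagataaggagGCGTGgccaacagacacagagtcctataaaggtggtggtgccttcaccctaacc
Cyp1b1: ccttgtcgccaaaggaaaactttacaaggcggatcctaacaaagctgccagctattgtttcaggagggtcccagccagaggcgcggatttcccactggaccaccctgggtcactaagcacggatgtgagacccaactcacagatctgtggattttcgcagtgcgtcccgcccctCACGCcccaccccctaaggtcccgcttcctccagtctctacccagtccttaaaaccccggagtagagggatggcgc

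The Ahrr sequence held 3 cores, starting at -107, -82 and -27 from the RefSeq start. Tiparp held 1 at -170, Cyp1a1 1 at -54 and Cyp1b1 1 at -76. Of 32851 promoters searched over the same 250 bases, 28.2% held at least 1 core and 2.77% held 3 or more. A match is a description of the letters and was not tested as a binding site. The genes lie on GRCm38 at chr12:35497974-35535038 for Ahr (ENSMUSG00000019256, minus strand), chr13:74211118-74292331 for Ahrr (ENSMUSG00000021575, minus), chr3:65528410-65555518 for Tiparp (ENSMUSG00000034640, plus), chr9:57687928-57703824 for Cyp1a1 (ENSMUSG00000032315, plus) and chr17:79701537-79715061 for Cyp1b1 (ENSMUSG00000024087, minus), by GENCODE M21. Ahr overlaps Gm48236 and Tiparp overlaps 4931440P22Rik on the opposite strand, and whether counting used strand is not given in the sources used here.

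The libraries held 34497509 to 46960005 unique molecular identifiers (UMIs, one per captured RNA molecule) in 10563 to 16133 cell barcodes. After limits on genes and mitochondrial share, 96721 of 100673 barcodes remained. Of 95624 different barcode sequences, 1088 occurred in more than 1 library. The preparation had passed a CD4+ T cell enrichment, yet plasma cells, macrophages, fibroblasts, endothelium and B cells were all present, and 19 cell types were named from marker genes. CD4 T cells are here the 20767 cells on the authors' deposited cell list that fell into T cell clusters, 1790 to 3751 per library. Named types are whole clusters rebuilt here, called X-like, and can differ from the study's own. They are not limited to the listed cells, and this holds for the T cell types as well. A point mutation cannot be checked in UMI counts. Values per library are given throughout in this order: untreated wildtype 1 and 2, untreated mutant 1 and 2, DSS wildtype 1 and 2, DSS mutant 1 and 2. The unit CPM is UMIs of a gene per 1000000 UMIs of the same cells in a library, and means over libraries weigh each library the same. CPM of these 3′ counts do not scale with gene length.

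Ahr was read in every named type. Dendritic-like cells had the highest level, 275 ± 60.2 CPM (mean ± SD, n = 8 libraries), followed by monocyte- or macrophage-like cells at 199 ± 31.5. Among T cells, Th17-like cells stood at 183 ± 39.5, Tfh-like cells at 175 ± 43.1, Treg-like cells at 153 ± 27.4 and Th1-like cells at 128 ± 19.4. Naive T-like cells were the lowest T cells, at 71.5 ± 25.3, a level that was 36.7 at clustering resolution 0.5. ILC3-like cells, a cluster led by Il22, Ccdc184, Tnfsf11 and Klrb1b, with Kit also among its leading genes, stood at 118 ± 26.6, within the range of the T cells. Fibroblast-like cells reached 53.3 ± 8.30 and mural-like cells 48.9 ± 23.6, while plasma cell-like cells, at 13.3 ± 2.96, were last. Of all neighbours in this order of 19 types, only dendritic-like above monocyte- or macrophage-like cells and mural-like above plasma cell-like cells were separated by more than the larger SD of the pair.

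**Figure D1:**
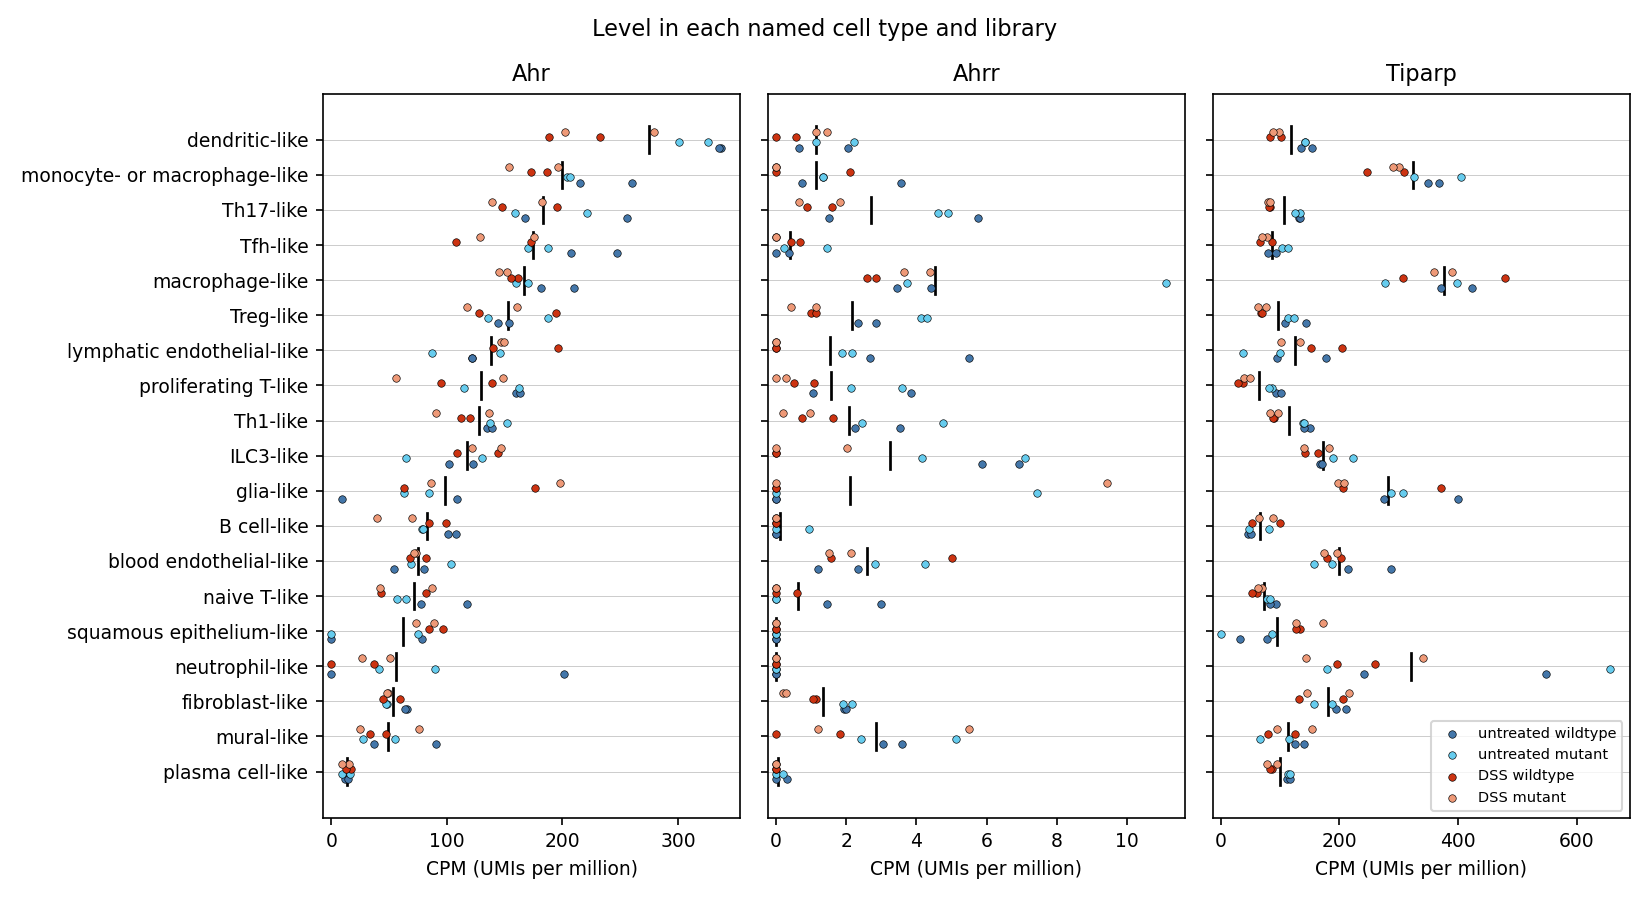
Levels of Ahr, Ahrr and Tiparp in the 19 named cell types, ordered by mean Ahr, in CPM on linear axes that differ between the panels; each point is 1 library, coloured by group, and each vertical line is the mean over the 8 libraries. Ahr is highest in dendritic-like cells (275 CPM) and Tiparp in macrophage-like cells (376), while Ahrr stays at or under a mean of 4.52 in every type.

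Tiparp had another order. Macrophage-like cells led with 376 ± 63.7 CPM (n = 8), then monocyte- or macrophage-like cells with 324 ± 49.4, neutrophil-like cells with 321 ± 186 and glia-like cells with 282 ± 76.4. Blood endothelial-like cells at 200 ± 39.5 were the next, and this step from glia-like cells was the only one between neighbours larger than both SDs. ILC3-like cells stood at 172 ± 26.7 and the named T cell types lower, from 116 ± 29.0 in Th1-like to 65.0 ± 28.8 in proliferating T-like cells. Across the 19 types the Pearson correlation of Ahr with Tiparp was 0.0973 on the log2(mean CPM + 1) scale, and that of Ahr with Ahrr 0.438. These are descriptions over types that share libraries.

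Ahrr, the receptor's repressor, was rare everywhere. The highest mean was 4.52 ± 2.74 CPM in macrophage-like cells, then 3.26 ± 3.14 in ILC3-like and 2.84 ± 1.89 in mural-like cells. Th17-like cells had 2.72 ± 2.02, Treg-like cells 2.17 ± 1.48 and Th1-like cells 2.07 ± 1.52, whereas B cell-like and plasma cell-like cells averaged 0.12 and 0.07. No neighbours in the order of Ahrr levels were separated by more than the larger SD of the pair. With cells thinned to 1000 UMIs, 0.186% of CD4 T cells had an Ahrr UMI, against 0.00552% of plasma cell-like cells, a type in which the gene is close to 0; unthinned, the shares were 0.534% and 0.0531%. Thinned shares for Ahr were 12.9% in CD4 T cells and 1.28% in plasma cell-like cells, and 28.6% and 9.37% unthinned. Thinning left out 592 CD4 T cells.

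Cyp1a1, the textbook inducible target, had 0 UMIs in CD4 T cells of all 8 libraries. A count of 0 among 65564435 UMIs allows up to 0.0458 CPM (3 UMIs), a limit that covers counting error only. Cyp1b1 had 3 UMIs in CD4 T cells. The highest levels of these cytochromes were outside the T cells, of Cyp1a1 in blood endothelial-like cells, at 3.65 ± 5.12 CPM, and of Cyp1b1 in fibroblast-like cells, at 4.08 ± 3.98.

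In CD4 T cells, Tiparp was lower after DSS in both genotypes. Ahrr, tested only because of its level in untreated cells, was also lower, and the values of the receptor itself overlapped between conditions. Tiparp, the ADP-ribosyltransferase, stood at 132, 127, 118 and 121 CPM in the untreated libraries and at 69.7, 70.2, 68.5 and 70.3 after DSS. All 4 DSS libraries were below all 4 untreated ones, and the genotypes lay close together within each condition. In the averaged DSS comparison 3839 of the 11059 genes tested had an unadjusted edgeR p under 0.05. The share of all genes without such overlap is not given, so non-overlap is a description, here and below. Averaged over genotypes, the log2 fold change was -0.91 (SE 0.07), a 1.88-fold fall, with an adjusted p of 0.000511 (edgeR quasi-likelihood test, Benjamini-Hochberg over 11059 genes). In that comparison 18.3% of all genes tested were called and 9.11% were called and lower, with a median log2 change of 0.01 over all genes. In wildtype alone, where 0.217% of genes were called and 0.0723% called and lower, Tiparp fell by 0.95 on the log2 scale (SE 0.10, edgeR adjusted p = 0.00606). In the mutant, with 5.11% of genes called and 2.79% called and lower, it fell by 0.87 (SE 0.10, edgeR adjusted p = 0.0105).

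Ahrr stood at 3.03, 3.20, 3.37 and 2.41 CPM in the untreated CD4 T cells and at 1.15, 0.69, 0.55 and 0.40 after DSS. The groups did not overlap, although the counts behind them were small: 19, 21, 21 and 16 UMIs untreated and 12, 5, 4 and 6 UMIs after DSS. Summed, 77 UMIs stood against 27, a ratio of levels of 0.226 with a 95% counting interval of 0.140 to 0.355. The averaged log2 fold change was -2.23 (SE 0.33, edgeR adjusted p = 0.00524), a 4.70-fold fall. Ahrr fell in the mutant, by 2.69 on the log2 scale (SE 0.49, edgeR adjusted p = 0.0271). In wildtype its log2 change of -1.77 (SE 0.44) had an edgeR adjusted p of 0.0995. Ahrr passed the filter on low counts through its untreated libraries alone (4 of 4, against 0 of 4 after DSS).

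**Figure D2:**
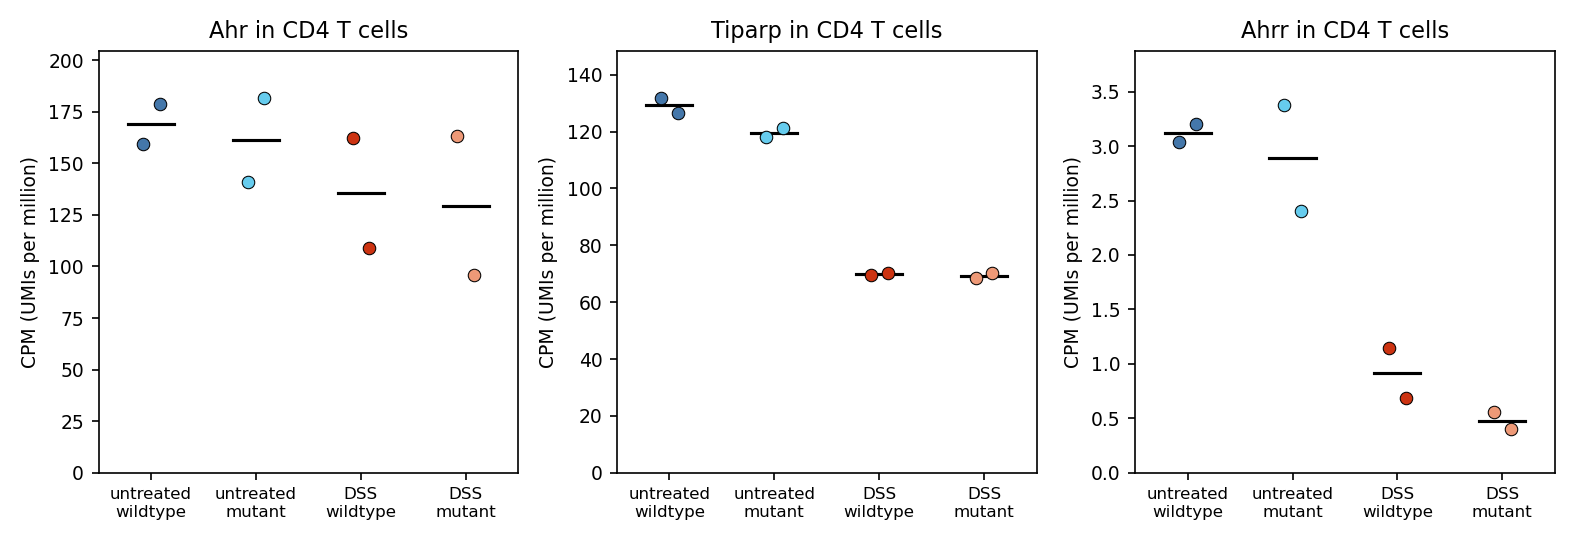
Ahr, Tiparp and Ahrr in CD4 T cells, in CPM, each point 1 library and each horizontal line the mean of the 2 libraries of a group. All DSS libraries lie below all untreated ones for Tiparp (68.5 to 70.3 against 118 to 132) and Ahrr (0.40 to 1.15 against 2.41 to 3.37), whereas for Ahr the ranges overlap.

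Ahr stood at 159, 179, 141 and 182 CPM untreated and at 162, 109, 163 and 95.7 after DSS. The ranges overlapped: the first DSS library of each genotype kept to the untreated level while the second of each was below it. The averaged log2 change was -0.40 (SE 0.18, edgeR adjusted p = 0.153). The low libraries were also those with few Th17-like cells: the Th17-like share of CD4 T cells was 13.5%, 15.7%, 11.6% and 27.0% untreated, and 19.3%, 8.66%, 35.0% and 9.36% after DSS. Within Th17-like cells Ahr stood at 195, 148, 183 and 139 CPM after DSS, and within Treg-like cells at 194, 128, 161 and 117. The second DSS library of each genotype was thus the lower one within these types too. The part of the Th17-like share in the Ahr level was not tested. Leaving out DSS mutant library 1 gave -0.61 with an edgeR adjusted p of 0.0241.

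Several features of the CD4 T cells moved with the condition. Treg-like cells made up 12.7% to 16.01% of them untreated and 23.0% to 29.9% after DSS. Without Treg-like cells Tiparp fell by 0.90 (edgeR adjusted p = 0.00273). Ahrr fell by 2.43 (edgeR adjusted p = 0.0106), which supports nothing further, since in CD4 T cells it passed the filter through untreated libraries alone. The 12 heat-shock and dissociation genes summed to 3781 and 4798 CPM in untreated wildtype, 9035 and 7879 in untreated mutant and 4077 to 4428 after DSS, and their part in the Tiparp and Ahrr levels was not tested. The 5 neutrophil markers summed to 0.46 to 1.28 CPM untreated and 3.49 to 11.6 after DSS, and the 6 columnar epithelium markers to 8.78 to 15.9 and 4.42 to 7.16. The 7 macrophage markers overlapped, at 116 to 252 and 119 to 397. The 5 T cell markers summed to 2853 to 3316 CPM untreated and 2310 to 2776 after DSS, without overlap, and the 3 red cell markers to 256 in DSS wildtype 2 against at most 3.74 in the other 7 libraries. The part of these markers in the member levels was not tested. Among cells without a UMI of other lineages, Tiparp fell by 0.90 (edgeR adjusted p = 0.000631). Ahrr fell there by 3.01 (edgeR adjusted p = 0.00665), which likewise supports nothing further, given how the gene passed the filter.

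Single libraries decided some of the within-genotype calls. Tiparp in wildtype had edgeR adjusted p-values of 0.104 without untreated wildtype 1, 0.119 without untreated wildtype 2 and 0.0804 without DSS wildtype 2. In the mutant they were 0.0862 without untreated mutant 1 and 0.0569 without untreated mutant 2. For Ahrr in the mutant they were 0.0602, 0.0596, 0.143, 0.105 and 0.121 without untreated wildtype 1, untreated wildtype 2, untreated mutant 1, untreated mutant 2 and DSS mutant 2. The averaged fall of Tiparp passed the test with each of the 8 libraries left out in turn, at edgeR adjusted p-values up to 0.00905. For Ahrr they reached 0.0437, which is no sign of stability, since the gene passed the filter through its untreated libraries alone.

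By T cell subset, Tiparp fell after DSS in all 6 named T cell types and in 9 of the 16 types fitted, where 7.05% of the gene fits of those types pooled were called and lower. The types share the same 8 libraries and are not independent. The pooled share is not that of genes called in several types. In proliferating T-like cells, with 7.78% of genes called and lower, it stood at 94.0, 101, 87.2 and 80.9 CPM untreated and 37.9, 29.9, 39.2 and 49.3 after DSS, without overlap, a log2 change of -1.25 (edgeR adjusted p = 7.14e-05). Th1-like cells, with 10.8% called and lower, held 151, 140, 139 and 140, then 89.0, 87.5, 97.1 and 83.5 after DSS, again without overlap and a fall of 0.77 (edgeR adjusted p = 0.000901). In Th17-like cells, with 5.3% called and lower, the levels were 132, 134, 133 and 125 against 82.7, 81.3, 78.9 and 83.1, a fall of 0.72 with an edgeR adjusted p of 0.00147. In Treg-like, naive T-like and Tfh-like cells, with 9.35%, 7.14% and 7.96% called and lower, Tiparp fell by 0.86, 0.55 and 0.41 (edgeR adjusted p = 0.00110, 0.00924 and 0.0263). The Tfh-like call was lost with DESeq2 and without untreated wildtype 2, untreated mutant 2, DSS wildtype 1 or DSS mutant 2 (edgeR adjusted p up to 0.159). The naive T-like call was lost at clustering resolution 0.5 (edgeR adjusted p = 0.128). Of the 12 heat-shock and dissociation genes, 9 fell in proliferating T-like cells, 6 in Treg-like, 4 in Th1-like, 3 each in Th17-like and Tfh-like and 2 in naive T-like cells, and their part in the Tiparp levels was not tested.

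Ahrr passed the filter on low counts in 4 types. In Th1-like and Treg-like cells, and in fibroblast-like cells below, 0 DSS libraries reached the level the filter asks for, so Ahrr was tested there through its untreated libraries alone, and the number of types called supports nothing. In Th1-like cells it stood at 3.53, 2.26, 4.77 and 2.46 CPM untreated and 0.74, 1.62, 0.96 and 0.20 after DSS, a log2 change of -2.18 (edgeR adjusted p = 0.0121). In Treg-like cells it stood at 2.86, 2.33, 4.13 and 4.31, then 1.002, 1.15, 1.13 and 0.44, a change of -1.90 (0.0134). Neither pair of conditions overlapped. In the larger of the 2 Treg-like clusters the change was -1.94 (edgeR adjusted p = 0.00801, 9.17% of genes called and lower). The other cluster held 1 Ahrr UMI in all 8 libraries. In the larger one, too, 3 untreated and 0 DSS libraries reached the filter level, so its test supports nothing further. The Th1-like call ended without untreated wildtype 1, untreated mutant 1 or DSS mutant 2 (edgeR adjusted p up to 0.0860). In Treg-like cells it ended on leaving out any 1 of the 4 untreated libraries or DSS mutant 2 (edgeR adjusted p up to 0.0664). Th17-like cells had 36 Ahrr UMIs untreated and 12 after DSS, too few to be fitted, at 1.51, 5.76, 4.89 and 4.63 CPM untreated and 0.89, 1.59, 0.66 and 1.83 after DSS, where untreated wildtype 1 fell among the DSS libraries.

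**Figure D3:**
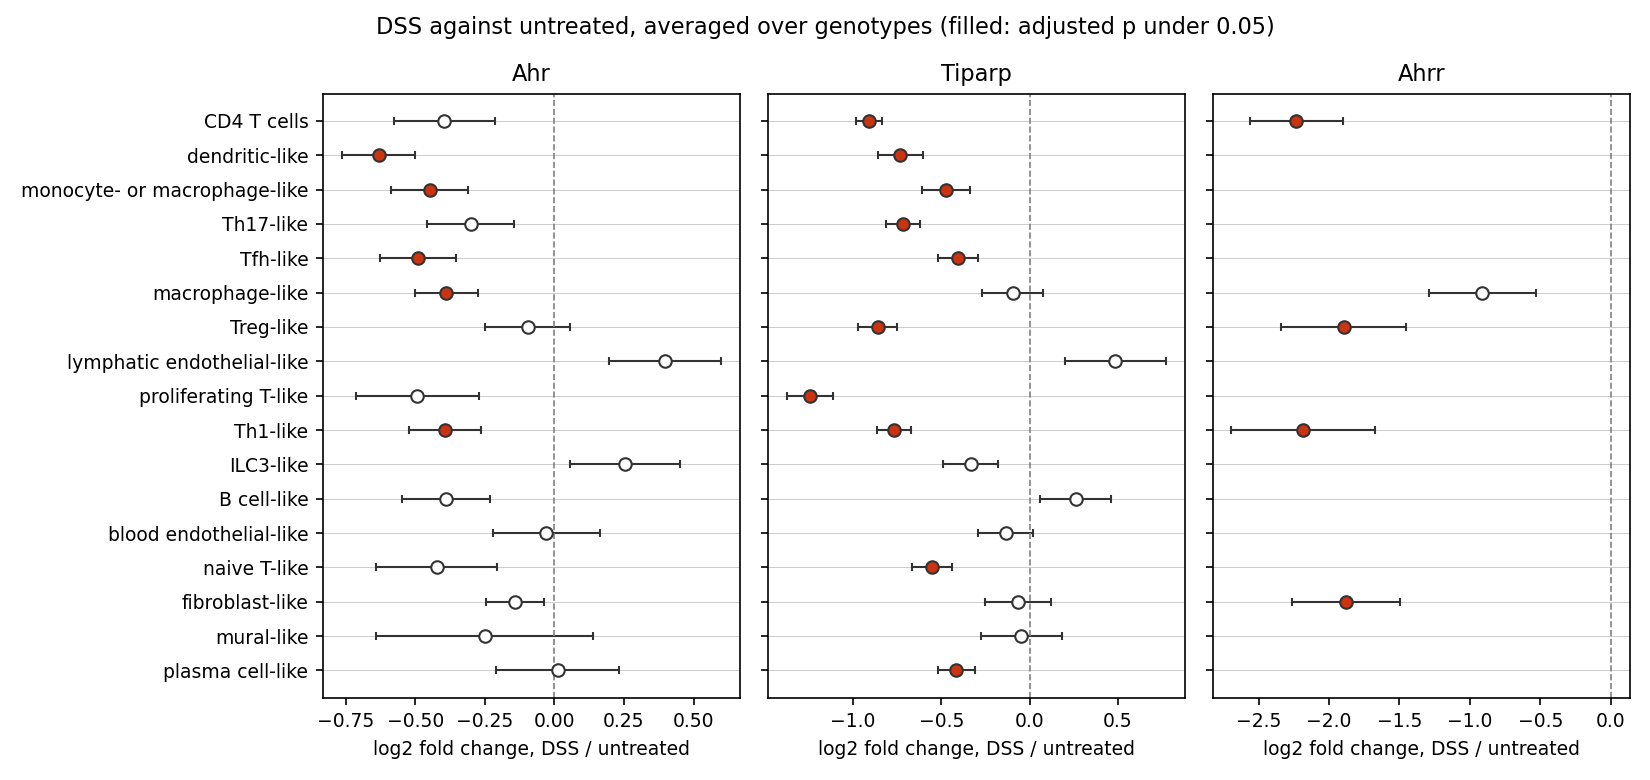
Log2 fold change after DSS, averaged over genotypes, of Ahr, Tiparp and Ahrr in CD4 T cells and the 16 named types fitted, with bars of 1 SE and filled points for an edgeR adjusted p under 0.05; a row without a point was not fitted. Tiparp is filled and below 0 in all T cell types, and Ahrr was fitted in CD4 T cells and 4 types.

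ILC3-like cells, in which the receptor is known for its part in interleukin-22, gave no call for Ahr or Tiparp. Of the 5836 genes tested in them, 2.18% were called and 1.17% called and lower, against 18.3% and 9.11% in CD4 T cells. Ahr stood at 102, 122, 64.5 and 130 CPM untreated and 145, 109, 121 and 147 after DSS, a log2 change of 0.25 (edgeR adjusted p = 0.550). Tiparp stood at 168, 171, 223 and 189, then 142, 165, 140 and 182 after DSS, a change of -0.33 (0.287). The conditions overlapped for both genes, and whether these changes differ from those in T cells was not tested. Ahrr had 3, 3, 2 and 3 UMIs untreated and 0, 0, 1 and 0 after DSS, 11 UMIs against 1, a ratio of levels of 0.0888 with a counting interval of 0.00206 to 0.611. Cd3e, a T cell gene, stood at 94.1 CPM in this cluster against 333 in CD4 T cells, and Kit at 367 against 19.2, so T cell RNA was present among these barcodes and its part in the member levels was not tested.

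In dendritic-like cells the receptor transcript itself was lower after DSS. Dendritic-like cells had 337, 336, 301 and 325 CPM of Ahr untreated and 233, 188, 279 and 202 after DSS. The conditions did not overlap, and the log2 change was -0.63 (edgeR adjusted p = 0.00578) where 7.92% of genes were called and lower. Tiparp in the same cells stood at 154, 135, 142 and 142, then 101, 83.2, 97.7 and 88.2, a fall of 0.73 (0.00202). Both falls passed the test in all 11 alternative settings. T cell marker genes in this cluster stood at 22.4% of their level in the highest cluster, and 24.9% of its barcodes were on the authors' cell list. The part of T cell RNA in these levels was not tested. Ahr also fell in monocyte- or macrophage-like cells (-0.45, edgeR adjusted p = 0.0338), macrophage-like cells (-0.39, 0.0295), Tfh-like cells (-0.49, 0.0278) and Th1-like cells (-0.39, 0.0477), 5 types of 16 in all, where 7.05% of the pooled gene fits were called and lower (11.7% in macrophage-like and 10.6% in monocyte- or macrophage-like cells). These 4 calls rested on nearly every library, with edgeR adjusted p-values up to 0.190 over the alternative settings. The call in macrophage-like cells was lost without any 1 of the 8 libraries, that in Th1-like cells without any but DSS mutant 1, that in Tfh-like cells without any but DSS wildtype 1 and DSS mutant 1, and that in monocyte- or macrophage-like cells without any but untreated wildtype 1 and DSS mutant 1. Of the 12 heat-shock and dissociation genes, 9 fell and 1 rose in macrophage-like cells, with a median of -1.44, led by Hspa1a (-1.99), Atf3 (-1.69) and Dnajb1 (-1.60). In monocyte- or macrophage-like cells 6 fell and 1 rose, with a median of -0.77, and in dendritic-like cells 4 fell and 0 rose, with a median of -0.30. The part of these genes in the Ahr and Tiparp levels was not tested. Over the 16 types, which share the same 8 libraries and are not independent, the averaged Ahr change was below 0 in 13.

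In macrophage-like cells, the type with the highest Tiparp and Ahrr, the log2 change of Tiparp was -0.10 and that of Ahrr -0.91 (edgeR adjusted p = 0.104), with 11.7% of genes called and lower. Ahrr stood at 3.44, 4.43, 11.1 and 3.73 CPM untreated and 2.59, 2.84, 3.64 and 4.40 after DSS. The conditions overlapped, and untreated mutant 1 stood far above the other 7 libraries. Monocyte- or macrophage-like cells had a Tiparp change of -0.47 (edgeR adjusted p = 0.0229, 10.6% of genes called and lower), lost without untreated wildtype 2, untreated mutant 2, DSS wildtype 2 or DSS mutant 2 (up to 0.131). Plasma cell-like cells had -0.42 (0.0426, 3.29% called and lower), lost with DESeq2 and without any 1 library but DSS mutant 2 (up to 0.160). For B cell-like cells the change of Tiparp was 0.26, for lymphatic endothelial-like cells 0.49, for blood endothelial-like cells -0.14, for fibroblast-like cells -0.07 and for mural-like cells -0.05, none past the test.

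Cyp1b1 rose in fibroblast-like cells after DSS. Cyp1b1, a monooxygenase of steroids and retinoids as well as of receptor ligands, stood at 0.56, 0.73, 1.77 and 1.74 CPM untreated and 6.76, 2.11, 7.56 and 11.4 after DSS. The UMIs behind these levels were 4, 7, 18 and 11 untreated and 12, 14, 38 and 80 after DSS. The conditions did not overlap, with DSS wildtype 2 nearest to the untreated libraries. Averaged over genotypes the log2 fold change was 2.44 (SE 0.39, edgeR adjusted p = 0.00371), with 10.7% of genes called and higher, and it passed the test in all 11 alternative settings. In the mutant, with 4.78% of genes called and higher, it was 2.47 (edgeR adjusted p = 0.0141) and in wildtype 2.40 (0.0723). The call in the mutant was lost without untreated mutant 1, untreated mutant 2 or DSS mutant 2 (edgeR adjusted p = 0.127, 0.0930 and 0.0809).

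The makeup of the fibroblast-like cells differed between conditions. Cluster 9, led by Rarres2, Postn, Col3a1 and Col1a2, made up 51.7% to 58.1% of them untreated and 1.73% to 20.4% after DSS, and had no Cyp1b1 UMI. Cluster 18, led by Igfbp5, Ereg, Il11 and Cxcl13, went from 0.1% to 0.7% up to 26.1% to 66.1%. Cluster 16, led by Dcn, Col3a1, Col1a1 and Lum, held most of the Cyp1b1 UMIs and made up 13.6% to 18.4% untreated and 20.4% to 48.6% after DSS. Within cluster 16 alone Cyp1b1 stood at 4.82, 5.39, 11.04 and 9.86 CPM untreated and 13.1, 9.59, 20.4 and 30.8 after DSS, an averaged change of 1.23 (SE 0.29, edgeR adjusted p = 0.0112) where 9.17% of genes were called and higher. DSS wildtype 2 there fell below both untreated mutant libraries. The log2 change was thus 2.44 over all fibroblast-like cells and 1.23 within cluster 16, and the part of the cluster shares in the former was not tested. Of the 12 heat-shock and dissociation genes 8 fell and 0 rose in fibroblast-like cells after DSS, with a median of -0.54 and 11.2% of all genes called and lower, led by Atf3 (-1.78), Hspa1a (-0.95) and Fos (-0.93), and their part in the Cyp1b1 and Ahrr levels was not tested.

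**Figure D4:**
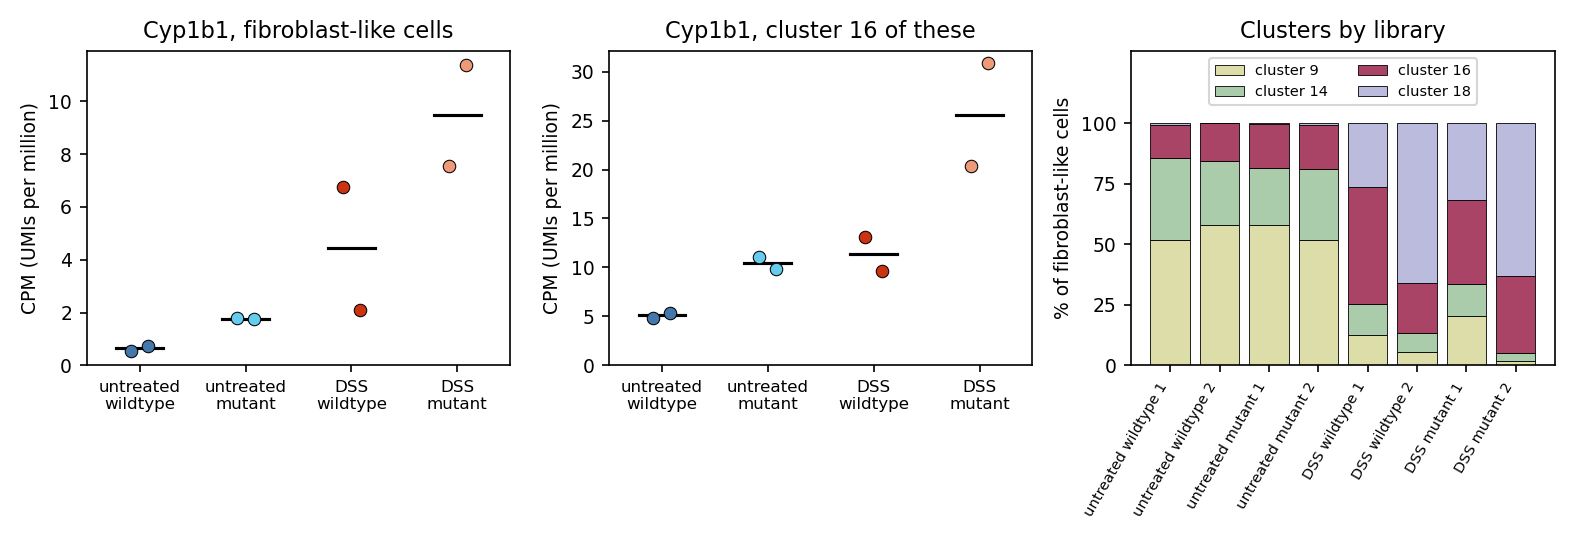
Left and middle, Cyp1b1 in all fibroblast-like cells and in cluster 16 alone, in CPM, each point 1 library and each line the mean of a group; right, the share of the fibroblast-like cells in each cluster by library, in percent. The conditions do not overlap over all fibroblast-like cells and overlap within cluster 16, and cluster 9, with 0 Cyp1b1 UMIs, goes from at least 51.7% to at most 20.4% of the cells.

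Ahrr was lower after DSS in the fibroblast-like cells as a whole, whose makeup by cluster differed between conditions. It stood at 1.95, 1.99, 2.17 and 1.90 CPM untreated and 1.13, 1.05, 0.20 and 0.28 after DSS, without overlap. The log2 change was -1.88 (edgeR adjusted p = 0.0107), with 11.2% of genes called and lower, on 67 UMIs untreated and 12 after DSS, and the gene passed the filter through the 4 untreated libraries alone. It was lost with DESeq2 (-1.91, adjusted p = 0.0786) and without untreated wildtype 2, untreated mutant 1 or DSS wildtype 2 (edgeR adjusted p up to 0.0578). Cluster 9 held 37 Ahrr UMIs untreated, in 547 to 1087 cells per library, and 0 after DSS, when 28, 56, 160 and 13 cells remained in it, too few to read a change of level. Cluster 14, led by Ogn, Nbl1, Col1a2 and Aspn, had a marker score of 6.21 for fibroblasts and 5.67 for telocytes, another stromal type of the marker lists. In cluster 14 Ahrr stood at 2.19, 3.42, 3.03 and 2.98 CPM untreated and 0, 4.04, 1.43 and 0 after DSS. These levels rest on 6, 9, 8 and 6 UMIs and then 0, 2, 1 and 0. The conditions overlapped there, and DSS wildtype 2 was the highest library. Cluster 16 held 1 Ahrr UMI in all 8 libraries, and cluster 18 held 9, all after DSS. Cluster 18 had 10, 1, 4 and 6 cells untreated and 58, 658, 248 and 476 after DSS, too few untreated to read a change of level. The part of the cluster shares in the Ahrr change of -1.88 was not tested. Cd3e stood at 55.2 CPM in fibroblast-like cells, against 333 in CD4 T cells.

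Nearly all Cyp1a1 reads of the named types were in blood endothelial-like cells, with 1 UMI each in Th1-like and fibroblast-like cells and 0 in lymphatic endothelial-like cells. Blood endothelial-like cells were led by Fabp4, Plvap, Flt1 and, from red cells, Hbb-bs. Rgs5, of the mural markers, was also among their leading genes, and their marker score was 6.74 for blood endothelial and 5.31 for mural cells. The part of mural cell RNA in their member levels was not tested. In blood endothelial-like cells Cyp1a1 stood at 2.96, 15.7, 1.16 and 4.50 CPM untreated and 3.33, 0, 1.52 and 0 after DSS. Those values rest on 5, 27, 3 and 8 UMIs untreated and 2, 0, 2 and 0 after DSS, with untreated wildtype 2 giving 27 of the 43 untreated UMIs. The ratio of the summed levels was 0.207 with a counting interval of 0.0539 to 0.569. It was 0.433 (0.105 to 1.34) without untreated wildtype 2 and 0.125 (0.0146 to 0.479) without DSS wildtype 1. The conditions overlapped, and the gene passed the filter on low counts in no named type. Cyp1b1 in blood endothelial-like cells had 3, 10, 12 and 0 UMIs untreated and 0 in every DSS library. There were 289 to 479 of these cells per untreated library and 109 to 261 per DSS library. Ahrr in lymphatic endothelial-like cells had 5, 2, 3 and 1 UMIs untreated and 0 in every DSS library, likewise not fitted. Their number was 89 to 204 cells per untreated library and 44 to 100 per DSS library, so fewer UMIs were to be found after DSS.

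Genotype gave no call for any member fitted. Cyp1a1 was not fitted in CD4 T cells or any named type, and Cyp1b1 among these only in fibroblast-like cells. In CD4 T cells of untreated mice the log2 change of mutant over wildtype was -0.06 (SE 0.26) for Ahr, -0.11 (SE 0.40) for Ahrr and -0.11 (SE 0.10) for Tiparp. After DSS it was -0.09 (SE 0.26), -1.04 (SE 0.54) and -0.03 (SE 0.10) in the same order, and the difference of the DSS effects between genotypes was -0.03 (SE 0.36), -0.92 (SE 0.67) and 0.08 (SE 0.15). Among all 11059 genes edgeR called 0 (0%) in each of these 3 comparisons and DESeq2 16, 0 and 0, while 585, 180 and 426 had an unadjusted edgeR p under 0.05. Over CD4 T cells and the 16 named types there were 40 member fits per comparison, and edgeR called 0 of them in each. Unadjusted p-values under 0.05 numbered 5 in untreated mice, 3 after DSS and 2 for the difference of effects, and the lowest adjusted p was 0.685. Over the gene fits of the 16 types pooled, 0.041% were called in untreated mice, 0% after DSS and 0.0141% for the difference. Cyp1b1 in cluster 16 had a log2 change of mutant over wildtype of 1.17 after DSS. Its unadjusted edgeR p was 0.00424 and its edgeR adjusted p was 1, and it was named after its values were seen. Untreated, Cyp1b1 in cluster 16 stood at 4.82 and 5.39 CPM in wildtype and 11.04 and 9.86 in the mutant. In fibroblast-like cells its change of mutant over wildtype was 1.34 untreated and 1.41 after DSS, with a difference of effects of 0.07, none called.

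The other genes of the pathway were read from lists of partners, enzymes and linked lymphocyte genes. In CD4 T cells, of 10 partners and chaperones, all tested, 0 rose and 3 fell in the averaged comparison, where 9.11% of all genes were called and lower, with a median log2 change of 0.10 against 0.01 for all genes. The 3 were Hsp90aa1 (-1.10, edgeR adjusted p = 0.00711), Hsp90ab1 (-0.66, 0.0122) and Rb1 (-0.34, 0.0434), the first pair being the chaperones that hold the receptor. Hsp90aa1 stood at 1677, 3032, 5084 and 5805 CPM untreated and 2134, 1464, 1717 and 1722 after DSS. Its untreated level was thus highest in the mutant libraries, and untreated wildtype 1 overlapped the DSS libraries. The log2 change of Hsp90aa1 was -0.45 in wildtype (edgeR adjusted p = 0.371) and -1.75 in the mutant (0.0155). For Hsp90ab1 the changes were -0.29 (0.439) and -1.03 (0.0278). Against the same 9.11%, of 12 heat-shock and dissociation genes 7 fell and 0 rose, led by Atf3 (-2.18), Hspd1 (-1.11) and Hspe1 (-1.08), with a median of -0.54. These 3 passed the edgeR test in the mutant (-2.84, -1.95 and -1.80) and not in wildtype, with 5.11% and 0.217% of all genes called. Of the xenobiotic enzymes and regulators, 2 of 10 could be tested and 0 were called, and none of the 10 tryptophan-derived ligand enzymes passed the filter. Among 10 other bHLH-PAS factors, 5 were tested and 1, Epas1, a hypoxia-responsive factor, rose by 0.72 on the log2 scale (edgeR adjusted p = 0.00796; 0.42 in wildtype and 1.02 in the mutant), where 9.18% of all genes were called and higher.

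Of 15 lymphocyte genes linked to the receptor, all tested in CD4 T cells, 0 rose and 2 fell, with a median of 0.12, a count near the 9.11% of all genes called and lower. They were Il21 (-0.80, edgeR adjusted p = 0.00815), a cytokine of helper T cells, and Gpr15 (-1.19, 0.0426), a receptor for homing to the colon. Il21 stood at 13.7, 20.7, 32.5 and 36.8 CPM untreated and from 13.2 to 17.2 after DSS, so the untreated mutant libraries were the highest and untreated wildtype 1 lay among the DSS libraries. Its log2 change was -0.16 in wildtype (edgeR adjusted p = 0.706) and -1.44 in the mutant (0.0133). For Gpr15 the changes were -0.67 (0.481) and -1.71 (0.0785). In Th17-like cells 3 fell, Il22 (-1.19, edgeR adjusted p = 0.0157), Il23r (-0.86, 0.0200) and Il21 (-0.71, 0.0462), and Notch2 rose (0.60, 0.0152), with a median of -0.19 against 0.01 for all genes, where 5.3% of genes were called and lower and 5.79% called and higher. These 4 genes passed the edgeR test in the mutant and not in wildtype, with 4.75% and 0.0457% of all genes called. Il17f, of the same list, was also called in the mutant (-1.18, edgeR adjusted p = 0.0405), though not in the averaged comparison. The log2 changes in the mutant were -2.10 for Il22, -1.25 for Il23r, -1.18 for Il21 and 1.13 for Notch2, against -0.27, -0.47, -0.25 and 0.08 in wildtype. The difference of the DSS effects between genotypes was not called for any of the 4 (edgeR adjusted p = 0.999 for each). In Treg-like cells Il10 fell (-0.55) while Ccr6 (0.81) and Il1r1 (0.78) rose, with a median of -0.06, where 9.35% of genes were called and lower and 8.54% called and higher. In ILC3-like cells 12 of the 15 were tested and 0 were called by edgeR, with a median of 0.07 and 2.18% of all genes called.

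The genes whose level across the 19 types was most like that of Ahr, among 12488 genes, were Ube2z (Pearson 0.882), Zfp800 (0.882), Ap3b1 (0.879), Ap1g1 (0.870) and Mapk1ip1l (0.866). For Ahrr they were Lipo3 (0.843), Serinc1 (0.821), Srgap2 (0.810), March2 (0.798) and Mdfic (0.797). No other member was among either set. Each is a correlation of mean levels over the same libraries and is given as a description.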

How the data were processed

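Droplet single-cell libraries (10x 3′ chemistry) were made from colonic lamina propria after enzymatic digestion, a Percoll gradient and a CD4+ T cell isolation kit, per the labels' protocols. The authors deposited UMI counts per gene and barcode for each library, with Cell Ranger 3.1.0, Seurat 4.0.1 and mm10 named in the submitters' processing notes; other settings are not given in the sources used here. Gene names were paired with the rows by order; in the 1 table that gives gene identifiers, 98.5% of the 30934 found in the reference table carried the listed name.

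Barcodes with at least 400 genes and under 20% mitochondrial UMIs were kept. Counts were scaled to 10000 per cell, and 1842 variable genes (members, listed genes and antigen-receptor genes removed) gave 30 components and 33 Leiden clusters at resolution 1 (leidenalg 0.10.2, scikit-learn 1.9.0, Python 3.11.15). Clusters were named by marker scores with limits set after the clusters were seen, and 9 were left unnamed. No doublet caller was run, and clusters with markers of several lineages stayed unnamed. CPM of a type are its summed UMIs of a gene per 1000000 UMIs in each library.

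UMIs summed per library and type were tested with edgeR 4.0.16 (R 4.3.3; TMM, filterByExpr, quasi-likelihood, 8 libraries, 4 groups sharing 1 spread), adjusted over all genes of the type, with a threshold of 0.05; types with under 20 cells in a library gave levels only. With 2 libraries a group no permutation test of single values was run. On simulated counts for DSS in wildtype (10869 genes), 66.7% of 2-fold and 92.9% of 4-fold changes were recovered (99 genes each), with 14 false calls. Alternatives were DESeq2 1.42.0, no filter, only the libraries compared, each library left out, resolution 0.5, all T cell barcodes and, added after seeing the data, cells without UMIs of other lineages and without Treg-like cells. Counting intervals and limits cover counting error only.

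The members and lists were chosen with earlier results of these data known. Named from the lists were genes past the threshold in a comparison described, up to 10 by size of change; genes most like Ahr and Ahrr were the 5 highest Pearson correlations across named types. The DSS comparisons in both genotypes were also averaged, and the genotype and DSS comparisons share libraries.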

Additional observations from a re-analysis of the deposited data

How the results depend on the processing

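In CD4 T cells the averaged fall of Tiparp (-0.93 to -0.80) passed the test in all 14 alternatives. So did that of Ahrr (-3.01 to -1.95), which passed the filter through untreated libraries alone, so that its calls support nothing further. Numbers of genes called moved far more. For DSS in wildtype, 24 became 198 with DESeq2, 847 without the filter, 13 with all T cell barcodes, 14 in cells without UMIs of other lineages, 4 without Treg-like cells and 0 (without untreated wildtype 2) to 122 with 1 library left out. For DSS in the mutant, 565 became 1595 without the filter, 120 with only the libraries compared, 1045, 323 and 131 in those 3 cell sets, and 0 (without untreated mutant 1) to 612 with 1 left out. For the averaged comparison, 2022 became 1304 with DESeq2, 937 without other lineages, 1190 without Treg-like cells and 210 (without untreated wildtype 2) to 2097 with 1 left out. The highest count over all 14 alternatives was 2919. For genotype, 0 in untreated mice became 16 with DESeq2, 138 without the filter and 0 to 7 with 1 left out; 0 after DSS became 34 and 0 to 4; 0 for the difference of effects became 70. The cause was not tested.

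Ahrr in wildtype passed without the filter (-1.77, edgeR adjusted p = 0.0161), and in the mutant did not with only the libraries compared (-2.70, 0.0610) or, over a range of -2.90 to -2.43, without 5 single libraries. Over all 14 alternatives the DSS change of Ahrr ranged from -2.23 to -0.94 in wildtype and from -5.08 to -2.43 in the mutant. That of mutant over wildtype after DSS ranged from -3.26 to -0.58, and the difference of effects from -4.14 to -0.47, without a call. With 1 left out Tiparp ranged from -0.97 to -0.93 in wildtype and -0.90 to -0.83 in the mutant, losing 3 and 2 calls. The averaged Ahr change passed without the filter (-0.38, 0.00210), and ranged from -0.61 to -0.23 with 1 left out. Genotype values of Ahr and Ahrr changed sign without any call: in untreated mice Ahr to 0.03, 0.12 and 0.01 (0.00546 in cells without other lineages; range with 1 left out -0.28 to 0.12), Ahrr to 0.0936, 0.16 and 0.88 (range -0.35 to 0.09); after DSS Ahr to 0.23 and 0.24 (range -0.53 to 0.24); and the difference of effects for Ahr to 0.06, 0.19, 0.29, 0.30 and, without Treg-like cells, 0.0545 (range -0.47 to 0.30). The Ahr level of naive T-like cells went from 71.5 to 36.7 CPM at resolution 0.5.

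No paired analysis was run because each title has its own number, the groups share none, and no label ties libraries to a shared litter, batch or day. Of the named types, Cyp1a1 passed the filter on low counts in none and Cyp1b1 in fibroblast-like cells only. Fits within single clusters were not repeated under the alternatives.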
